A study of Homo sapiens with 39 samples.

Results

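DUSP4, DUSP5, DUSP6, SPRY1, SPRY2, SPRY4, SPRED1, ETV4, ETV5 and PHLDA1 are genes that the ERK branch of the MAP kinase pathway switches on and that, in most cases, restrain it in return. These 10 genes were taken by symbol from a table of 60671 genes, and their levels were followed across 39 RNA-seq libraries of 2 human melanoma lines in culture, A375 and WM115. Each line was compared with cell clones that lack a region labelled R1 or R4, in a study of a SOX10 enhancer. The labels do not describe the regions further.

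A growth factor bound to its receptor activates RAS, then the kinases RAF, MEK and ERK in turn, and ERK enters the nucleus and changes transcription. Among the genes it induces are phosphatases that take the phosphates off ERK again (the DUSP genes), adaptor proteins that act upstream at the level of receptors, RAS and RAF (the Sprouty genes SPRY1, SPRY2 and SPRY4, and SPRED1), ETS transcription factors of the PEA3 group (ETV4 and ETV5), and PHLDA1, a pleckstrin-homology-like protein used with the others as a readout of pathway output. In melanoma with an activating BRAF mutation, which both lines are known to carry, this set is used to read how strongly ERK signals. SOX10 is a regulator of transcription that melanocytes and their neural crest precursors need.

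The A375 groups were wild type (4 libraries), R1 deletion clones 1.1 (3) and 1.2 (4), and R4 deletion clones 4.1 (4) and 4.2 (3). The WM115 groups were wild type (4), R1 deletion clones 1.1 (5) and 1.2 (3), R4 deletion clones 4.1 (3) and 4.2 (3), and clone 1.3 (3), whose titles number it with the R1 clones while its genotype label gives R4. Clone 1.3 is therefore assigned to neither region. No treatment, time or age separates the groups, and the wild type of a line is the control for all its clones, so the comparisons within a line share those 4 libraries. Each deletion group is 1 clone, and its libraries repeat that clone. The labels do not say that libraries came from separate cultures, so p-values measure the spread between these libraries, which may be technical.

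All levels are in TPM, the deposited unit, which scales transcript abundance by length and library and allows levels of different genes to be compared per length, while read depth is unknown. Between 14084 and 16140 genes reached 1 TPM in a library, and the mitochondrial share of TPM ran from 0.968% to 4.92% over the A375 libraries and from 4.71% to 19.4% over those of WM115. SOX10 was at 630 to 706 TPM in A375 wild type and 449 to 553 TPM in WM115 wild type. Its group mean was lowest in clone 1.2 of each line, with 406 to 473 TPM in A375, where 1 library of clone 1.1 was lower still (381 TPM), and with 279, 272 and 9.56 TPM in WM115, where the third library stands apart. Of the other melanocytic markers, MLANA, PMEL, TYR and DCT stayed at or below 2.54 TPM in A375, while DCT reached 1685 TPM in WM115. Of 14 markers of fibroblasts, epithelium, leukocytes and endothelium, 7 stayed at or below 0.731 TPM in every library (DPT, EPCAM, KRT5, CDH1, PTPRC, CD3E and VWF). The others reached 4.34 (DCN), 26.4 (LUM), 18.8 (THY1), 30.4 (KRT14), 12.0 (PECAM1), 4.04 (CDH5) and 757 TPM (CD68, which is not limited to leukocytes and was at least 18.2 TPM), and their part in the results was not tested.

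All 10 genes were expressed in every library. In A375 wild type, PHLDA1 had the highest mean level (301 ± 56.9 TPM, SD, n = 4), followed by SPRY2 (207 ± 56.8), DUSP6 (172 ± 22.7), SPRY4 (166 ± 61.9), ETV4 (147 ± 18.5), DUSP4 (87.5 ± 16.4), ETV5 (56.7 ± 7.12), SPRED1 (34.6 ± 3.67), DUSP5 (13.8 ± 1.06) and SPRY1 (10.3 ± 3.70 TPM). Ranges of neighbours overlapped from PHLDA1 down to ETV4 and between DUSP5 and SPRY1, and were separate at the other 4 steps. In WM115 wild type the order was PHLDA1 (231 ± 51.7 TPM, SD, n = 4), DUSP4 (186 ± 17.2), DUSP6 (178 ± 27.1), SPRY4 (136 ± 29.8), SPRY2 (124 ± 10.2), ETV4 (90.7 ± 7.73), ETV5 (46.9 ± 4.12), SPRED1 (39.7 ± 4.1), SPRY1 (16.8 ± 5.23) and DUSP5 (8.72 ± 1.76 TPM). There the ranges of neighbours overlapped from PHLDA1 down to SPRY2 and between ETV5 and SPRED1.

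**Figure D1:**
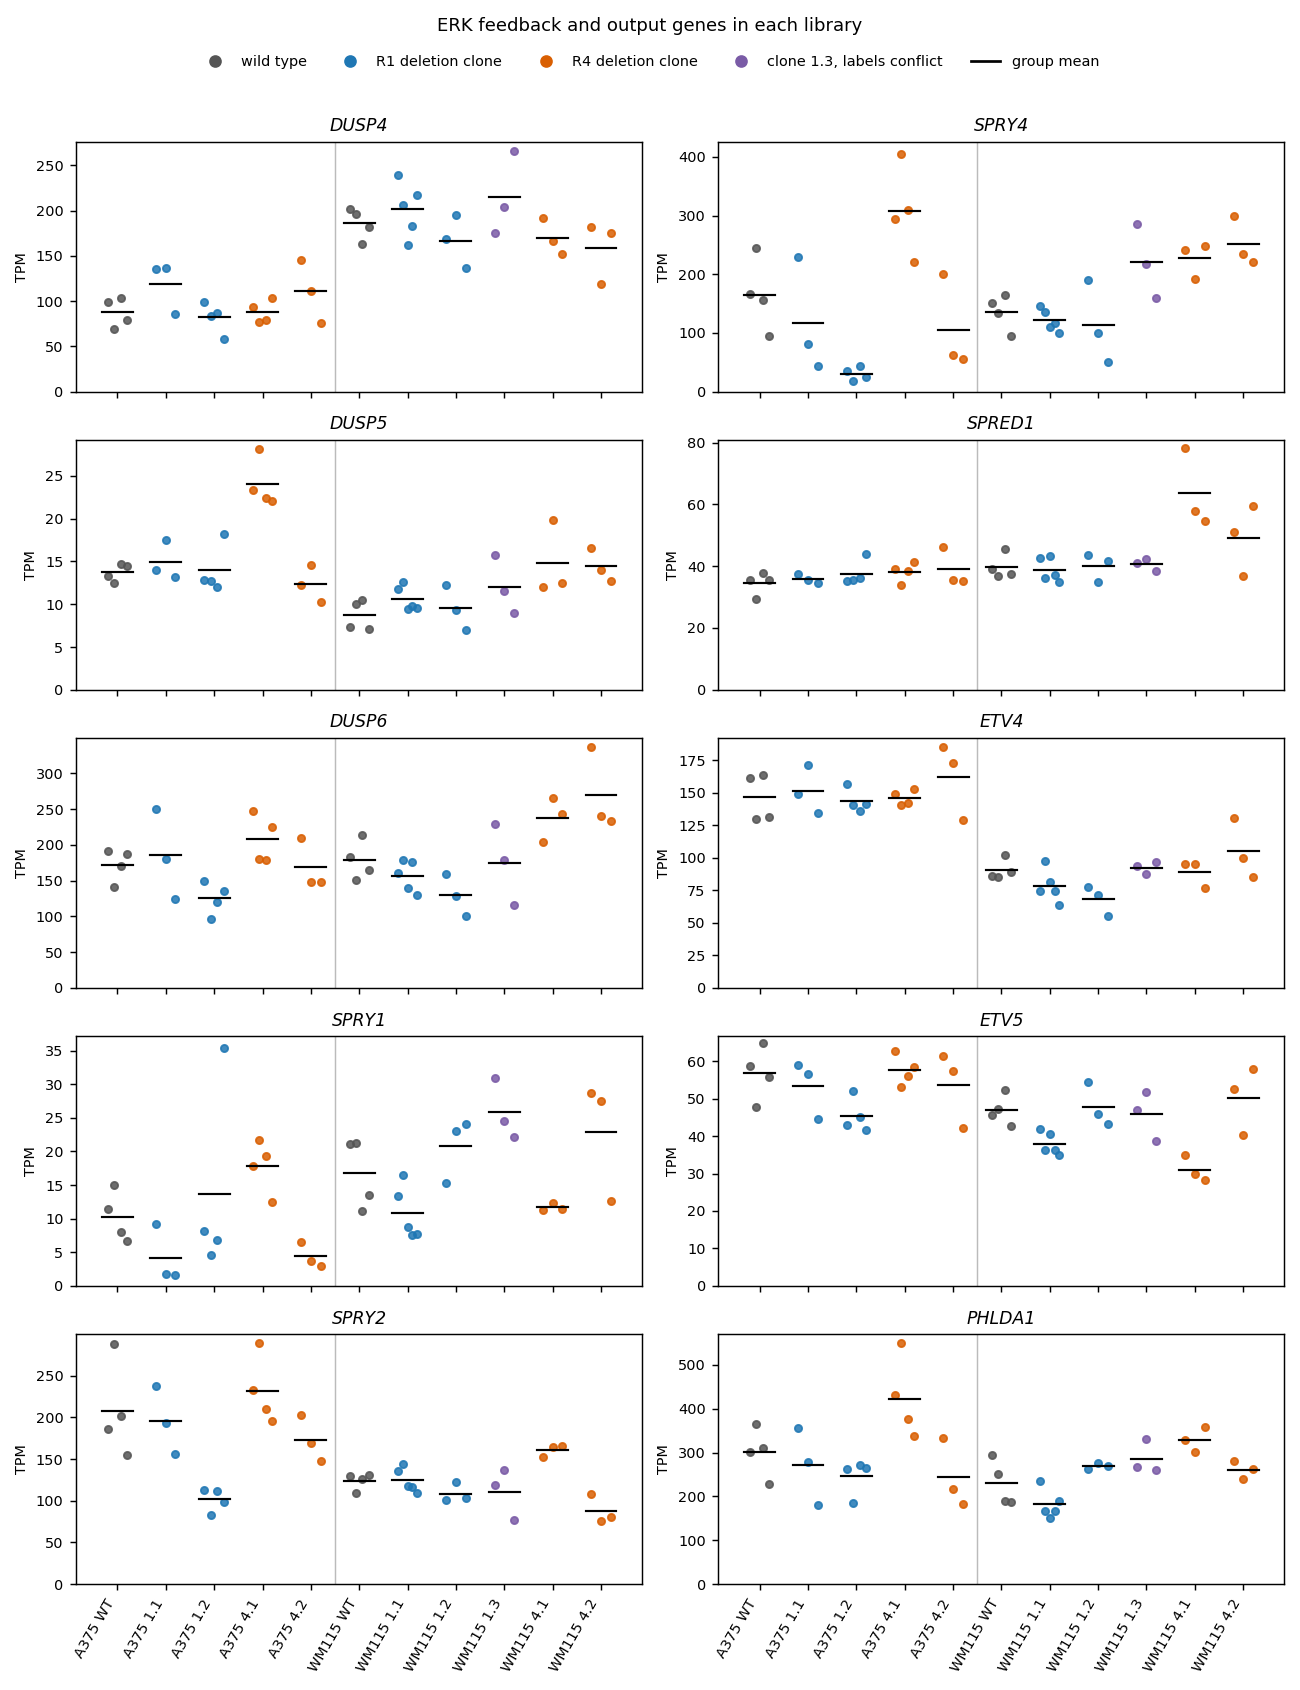
Level of each of the 10 genes in TPM (y axes, from 0) in each of the 39 libraries, by line and clone (x axes); points are libraries and black bars group means. SPRY4 in A375 runs from 17.6 TPM in clone 1.2 to 406 TPM in clone 4.1, while SPRED1 and ETV4 in A375 keep within 1.57-fold and 1.43-fold ranges.

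The first comparison asked how the 2 lines differ before any deletion. DUSP4, a nuclear phosphatase of ERK and other MAP kinases, was the gene of the set with the largest difference between the lines, and it was lower in A375. Its levels were 99, 68.9, 103 and 78.8 TPM in A375 wild type and 202, 196, 163 and 182 TPM in WM115 wild type. The lines did not overlap, and the log2(TPM + 1) difference was -1.09 (SE 0.19; limma, Benjamini-Hochberg adjusted p = 2.1e-05). A difference is called here at an adjusted p under 0.05 and a log2 difference of at least 1. DUSP4 was the 1 of 10 genes called, against 20% of the 18662 genes tested, and without replicate 2 of A375 wild type its difference of -0.98 fell short of the minimum size. ETV4 (0.68), SPRY2 (0.70) and DUSP5 (0.62) were higher in A375 with limma adjusted p of 8.7e-05, 0.0011 and 0.0042, so 4 of 10 genes had an adjusted p under 0.05, against 48.8% of all genes. The remaining 6 genes had adjusted p above that threshold, with SPRY1 (-0.66), SPRED1 (-0.19) and DUSP6 (-0.04) below 0.

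Over the 9 clones there were 90 differences between a clone and its wild type, 1 for each gene and clone. Of these, 1 was called, 10 had an adjusted p under 0.05 (6 above and 4 below wild type), and 69 were smaller than 0.5 on the log2 scale. Sizes under 0.5 are not particular to the set. The median size of difference over all genes lay between 0.17 and 0.32 in each clone, and over the 10 genes between 0.095 and 0.48. DUSP4 and ETV4 stayed within 0.5 in all 9 clones. The clones that passed the adjusted p for some member were A375 1.2 and 4.1 and WM115 4.1 and 4.2. The table-wide shares called differed widely between clones, and the counts are read against them below.

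**Figure D2:**
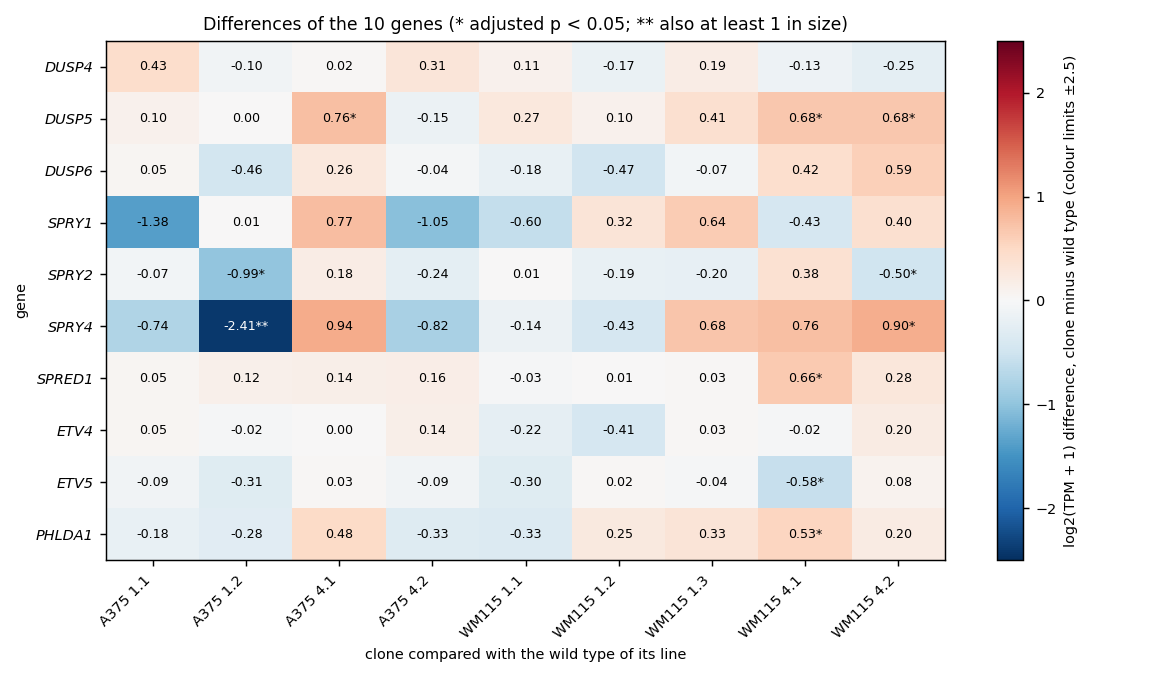
Difference in log2(TPM + 1) between each clone and the wild type of its line (columns) for the 10 genes (rows), with 1 asterisk for a limma adjusted p under 0.05 and 2 asterisks where the difference is also at least 1. SPRY4 in A375 clone 1.2 (-2.41) is the single cell with 2 asterisks.

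SPRY4, an inhibitor that acts between receptor and RAF, had the widest range of the set in A375. The A375 wild type libraries held 166, 246, 156 and 94.8 TPM. In clone 1.2 the values were 35.3, 17.6, 43.5 and 24.7 TPM, all below every wild type library. Clone 4.1 lay at the other end, with 294, 406, 309 and 221 TPM. The libraries of clones 1.1 (229, 81.1 and 43.2 TPM) and 4.2 (200, 62.2 and 55.2 TPM) each held 1 value within the wild type range and 2 below it. SPRY4 fell in clone 1.2, by 2.41 on the log2 scale (SE 0.47, 95% interval -3.41 to -1.42; limma adjusted p = 0.0034). The call held without each library of the 2 groups in turn (-2.65 to -2.19). Among the libraries of low mitochondrial share (at most 2.5% of TPM in A375, while WM115 was split at 7.5%), 3 wild type and 2 of clone 1.2, the difference was -2.61 with a limma adjusted p of 0.17. In clone 4.1 SPRY4 was 0.94 above wild type (SE 0.47; limma adjusted p = 0.52), and with the replicate number as a block, which pairs the libraries of this clone with wild type, the adjusted p was 0.0027. Clones 1.1 and 4.2 gave -0.74 (95% interval -1.82 to 0.33) and -0.82 (-1.89 to 0.26), intervals that hold 0 and also falls of over 1.

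Mean SPRY4 and mean SOX10 were both highest in clone 4.1 of A375 (308 and 777 TPM), next in wild type (166 and 682 TPM) and lowest in clone 1.2 (30.2 and 443 TPM), while the order of clones 1.1 and 4.2 differed between the genes (118 and 106 TPM of SPRY4, 513 and 559 TPM of SOX10). In WM115 the highest SPRY4 was in clone 4.2 (252 TPM), where SOX10 was 422 TPM against 507 TPM in wild type. SOX10 was set beside SPRY4 after the values were seen, and its part in the SPRY4 levels was not tested.

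SPRY2, the family member with the highest mean in A375 wild type, was also lower in clone 1.2. Wild type libraries held 186, 287, 202 and 154 TPM and clone 1.2 held 113, 82.8, 112 and 98.9 TPM, without overlap. The difference was -0.99 (SE 0.19, 95% interval -1.40 to -0.59; limma adjusted p = 0.0031), just under the minimum size for a call, and it passed that size with a pseudocount of 0.1 (-1.0), median-of-ratios scaling (-1.06) and quantile normalization (-1.03). Its limma adjusted p was 0.20 among the libraries of low mitochondrial share (-1.05) and 0.10 with the replicate block (-0.99). SPRY2 lies on chromosome 13, and the other 298 tested genes of that chromosome had a median difference of -0.33 in this clone, against 0.07 over all genes. SPRY4 lies on chromosome 5, whose other 788 genes had a median of 0.04. The part of these medians in the SPRY2 and SPRY4 differences was not tested. The SPRY1 difference in clone 1.2 was 0.01 with a wide interval (SE 0.50, 95% interval -1.05 to 1.08; limma adjusted p = 0.99). For SPRY1, 3 libraries held 8.11, 4.56 and 6.84 TPM and the fourth 35.4 TPM, against 6.71 to 15.0 TPM in wild type, and without that library, replicate 4, the difference was -0.56. Thus 2 of 10 genes had an adjusted p under 0.05 in A375 clone 1.2, against 8.53% of 16692 genes, and 1 of 10 was called, against 4.01%. The median difference of the 10 genes was -0.19, and that of all tested genes 0.07.

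SPRY2 and SPRY4 are the members with the largest differences in A375 clone 1.2, and promoter windows were read for them. RefSeq gives 3 starts for SPRY2, and CCGGAA occurs in the window of 1 of them. The stretch below is the 250 bases before that start (GRCh38.p14, chr13:80341127-80341376, minus strand, 5′ to 3′), which overlaps no exon of the GENCODE 29 annotation. Capitals mark the letters CCGGAA, the core that ETS factors such as ETV4 and ETV5 are known to bind.

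SPRY2 promoter window: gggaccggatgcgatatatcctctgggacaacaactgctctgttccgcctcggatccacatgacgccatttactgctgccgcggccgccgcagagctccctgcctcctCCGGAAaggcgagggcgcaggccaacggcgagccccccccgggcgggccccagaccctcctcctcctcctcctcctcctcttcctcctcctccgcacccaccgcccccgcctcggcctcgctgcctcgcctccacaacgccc

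Both strands were searched for CCGGAA, for the AP-1 letters TGANTCA, for the CRE letters TGACGTCA and for the serum response element. This SPRY2 window held CCGGAA 1 time and none of the others, and the other 2 SPRY2 windows held none of the 4. CCGGAA occurs in 14.5% of 35116 windows of the same length, TGANTCA in 6.57%, TGACGTCA in 1.65% and the serum response element in 1.16%. The window of SPRY4 (chr5:142324248-142324497, minus strand) held none of the 4, which says only that these letters are not in that window. It overlaps an exon of the transcript SPRY4-203 and is not shown.

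DUSP5, a nuclear phosphatase that acts on ERK, differed in A375 clone 4.1. Its libraries held 23.3, 28.1, 22.5 and 22.1 TPM, all above the wild type values of 13.3, 12.5, 14.8 and 14.5 TPM. The difference was 0.76 (SE 0.15, 95% interval 0.44 to 1.07; limma adjusted p = 0.015), and 0.0091 was the adjusted p with the replicate block. It passed the adjusted p in 6 of 8 fits that left out 1 library, and was 0.06 without replicate 1 of wild type. Among the libraries of low mitochondrial share, 3 in each group, it was 0.82 with a limma adjusted p of 0.090. DUSP5 was thus the 1 of 10 genes with an adjusted p under 0.05 in this clone, against 1.31% of all genes, and 0 of 10 were called, against 0.653%. In the blocked fit SPRY1 (0.77), PHLDA1 (0.48) and SPRY4 also passed, with limma adjusted p of 0.012, 0.0094 and 0.0027, which makes 4 of 10 genes, against 11.7% of all genes in that fit. All 10 differences were above 0 in clone 4.1, with a median of 0.22 against -0.02 over all genes. Those of ETV4 (0.002), DUSP4 (0.02) and ETV5 (0.03) were within their SE of 0 (0.13, 0.22 and 0.14). PHLDA1 held 430, 549, 376 and 337 TPM in this clone and 302, 366, 310 and 227 TPM in wild type, so the groups overlapped.

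A375 clones 1.1 and 4.2 gave no gene of the set with an adjusted p under 0.05 (limma, against 1.04% and 0.557% of all genes), and none was called (0.731% and 0.473%). At an unadjusted p under 0.05 the counts were 1 of 10 and 0 of 10, against 1679 and 1297 of the 16692 genes tested. SPRY1, which is close to SPRY2 and SPRY4 in function, had the largest differences there. It was listed at 9.16, 1.71 and 1.62 TPM in clone 1.1 and at 6.51, 3.76 and 3.02 TPM in clone 4.2, where every library was below the lowest wild type library (6.71 TPM). The differences were -1.38 (SE 0.54; limma adjusted p = 0.36) and -1.05 (SE 0.54; limma adjusted p = 0.66). They are not distinguished from the spread between libraries of SPRY1, which is one of the widest of the set.

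In WM115, 4 of 10 genes had an adjusted p under 0.05 in clone 4.1, against 24.2% of 16997 genes, and 3 of 10 in clone 4.2, against 20.3%. None was called, against 7.57% and 6.6%. The shares for adjusted p are not far above those of all genes, so they are not a result about the set. All 4 wild type libraries of WM115 were of high mitochondrial share, while 2 of 3 libraries of clone 4.1 and 1 of 3 of clone 4.2 were of low share. Where mitochondrial share is a term of a fit, here and below, the term is this split into high and low. It does not adjust for the percentage, which ran from 8.31% to 19.4% among the high WM115 libraries. With that share as a term the counts at an adjusted p under 0.05 were 2 of 10 in clone 4.1 (16.9% of all genes) and 1 of 10 in clone 4.2 (19.9%), and among the libraries of high share alone, 1 of clone 4.1 and 2 of clone 4.2, they were 0 of 10 in each (1.39% and 6.51%). The median of all genes was -0.10 in both clones and 0.01 or less in size after median-of-ratios scaling. The median of the 10 genes was 0.40 in clone 4.1 and 0.24 in clone 4.2.

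SPRED1, which binds neurofibromin and restrains RAS, was higher in WM115 clone 4.1. It was at 78.3, 57.9 and 54.7 TPM there and at 39, 36.7, 45.7 and 37.5 TPM in wild type. The groups did not overlap, and the difference was 0.66 (SE 0.15; limma adjusted p = 0.0048), or 0.53 with mitochondrial share as a term (limma adjusted p = 0.035). In A375 and in WM115 wild type and clones 1.1, 1.2 and 1.3 the group means of SPRED1 lay between 34.6 and 40.6 TPM, and clone 4.2 held 51.1, 36.7 and 59.4 TPM. The protein-coding transcript SPRED1-201 carried a median of 85.6% of the SPRED1 TPM in clone 4.1 and 89.8% in wild type.

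ETV5 was lower in the same clone. Its libraries held 35.0, 29.8 and 28.2 TPM, all below wild type (45.6, 47.1, 52.4 and 42.6 TPM), with a difference of -0.58 (SE 0.13; limma adjusted p = 0.0048), or -0.68 with mitochondrial share as a term (limma adjusted p = 0.0050). ETV5 lies on chromosome 3, whose other 919 tested genes had a median of -0.35 in this clone. Its close relative ETV4, on chromosome 17, overlapped wild type there (95.5, 95.6 and 76.9 TPM against 85.7 to 102 TPM). ETV5 was also below every wild type library in all 5 libraries of WM115 clone 1.1 (35.0 to 41.9 TPM), where the difference was -0.30 and the chromosome 3 median -0.32. The part of the chromosome medians in these differences was not tested.

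DUSP5 was above wild type in both R4 clones of WM115. Wild type held 7.35, 9.98, 10.5 and 7.07 TPM, clone 4.1 held 12.0, 19.8 and 12.5 TPM, and clone 4.2 held 16.5, 14.1 and 12.7 TPM. Neither clone overlapped wild type, and the differences were 0.68 in each (SE 0.21; limma adjusted p = 0.026 and 0.030). Those adjusted p rose to 0.17 without replicate 2 of clone 4.1 and to 0.12 without replicate 1 of clone 4.2. With mitochondrial share as a term the DUSP5 differences were 0.52 and 0.60, with limma adjusted p of 0.14 and 0.056. PHLDA1 in clone 4.1 held 329, 301 and 357 TPM against 187 to 294 TPM (0.53, SE 0.16; limma adjusted p = 0.022, up to 0.078 without replicate 3 of the clone and 0.061 with mitochondrial share as a term).

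SPRY4 and SPRY2 moved in opposite directions in WM115 clone 4.2, while the SPRY1 difference was 0.40 (SE 0.29; limma adjusted p = 0.35). SPRY4 held 299, 235 and 221 TPM against 150, 134, 164 and 95.3 TPM in wild type, a difference of 0.90 (SE 0.31; limma adjusted p = 0.045) that reached 1.02 with median-of-ratios scaling. With mitochondrial share as a term the SPRY4 difference was 0.84 with a limma adjusted p of 0.073, and with no filter on low genes none of the 10 passed in this clone (7.77% of all genes did). SPRY2 held 108, 75.4 and 81.0 TPM against 129, 109, 127 and 131 TPM, a difference of -0.50 (SE 0.16; limma adjusted p = 0.037, and 0.020 with mitochondrial share as a term). The other 307 tested genes of chromosome 13 had a median of -0.58 in this clone, and its part in the SPRY2 difference was not tested. Over 9 alternatives other than omissions of single libraries, the SPRY2 difference ran from -0.65 to -0.38. SPRY2 and SPRY4 each had a limma adjusted p under 0.05 in 5 of those 9. With the replicate block the limma adjusted p were 0.11 for SPRY2 and 0.071 for SPRY4. The limma adjusted p of SPRY2 reached 0.17 without replicate 2 of clone 4.2. For SPRY4 the adjusted p reached 0.15 without replicate 1 of clone 4.2. DUSP6, the cytoplasmic ERK phosphatase, held 337, 241 and 233 TPM against 151 to 214 TPM, with a difference of 0.59 (SE 0.21; limma adjusted p = 0.054). In clone 4.1 SPRY2 and SPRY4 were both above every wild type library (0.38 and 0.76; limma adjusted p = 0.10 and 0.080).

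In WM115 clones 1.1, 1.2 and 1.3 no gene of the set was called (limma, against 4.88%, 7.61% and 0.618% of all genes), and none had an adjusted p under 0.05 (22%, 22.6% and 1.06%). At an unadjusted p under 0.05 the counts were 3, 2 and 2 of 10, against 5968, 6206 and 2212 of the 16997 genes tested. Of the 5 libraries of clone 1.1, 3 were of low mitochondrial share, while those of clones 1.2 and 1.3 were all of high share. With that share as a term, SPRY1 (-0.88) and ETV4 (-0.43) passed in clone 1.1 (limma adjusted p = 0.037 and 0.025). ETV4 also passed in clone 1.2 (-0.41; limma adjusted p = 0.022). These were 2 and 1 of 10, against 15.6% and 24.8% of all genes. Among the libraries of high share alone they were 0 of 10 in each (4.55% and 11.5%). SPRY4 held 190, 101 and 50.3 TPM in clone 1.2, the lowest value being that of the library that stands apart, and 285, 218 and 159 TPM in clone 1.3. ETV4 was below every wild type library in clone 1.2 (78.0, 71.8 and 55.7 TPM), with a difference of -0.41 (limma adjusted p = 0.063).

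The deletions themselves were compared over clones, with 1 mean value for each of 8 clones and clone 1.3 left out. No gene of the table was called between R1 and R4 clones or in the interaction of region with line (limma, 0% of 18099 genes each). At an unadjusted p under 0.05 there were 754 genes for the regions and 532 for the interaction, and 2 and 0 of the 10. Those 2 were SPRY4, at -1.38 in R1 against R4 clones (SE 0.44, 95% interval -2.39 to -0.36; limma adjusted p = 0.98), and DUSP6, at -0.57 (SE 0.18, -0.98 to -0.17; limma adjusted p = 0.98). Leaving out 1 clone moved SPRY4 between -1.67 and -0.97 and DUSP6 between -0.73 and -0.46. The interaction of SPRY4 had an interval of -1.64 to 2.69, too wide to say whether the lines differ.

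Within A375 groups, libraries with more SPRY4 also held more SPRY2 and PHLDA1. The library with the highest SPRY4 in its group also had the highest PHLDA1 in 8 of 11 groups over both lines, and the lowest matched in 8 of 11. The same counts held for SPRY2 with PHLDA1 and for SPRED1 with ETV5, while over all 45 pairs of the set the medians were 4 and 6 of 11. As a description over the 18 A375 libraries, deviations from the group means in log2(TPM + 1) had a Pearson r of 0.93 (Spearman 0.89; 0.91 without the 2 libraries farthest from the median of SPRY4) for SPRY4 with PHLDA1, and 0.86 (0.88; 0.87) for SPRY4 with SPRY2. Over the 21 WM115 libraries the r with PHLDA1 was 0.22 (0.30; 0.39), and the highest there was with DUSP6, at 0.72 (0.74; 0.71). For DUSP5 with SPRY4 the r was -0.04 in A375 and 0.66 in WM115. Both values of a pair come from the same library and share its depth and composition.

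**Figure D3:**
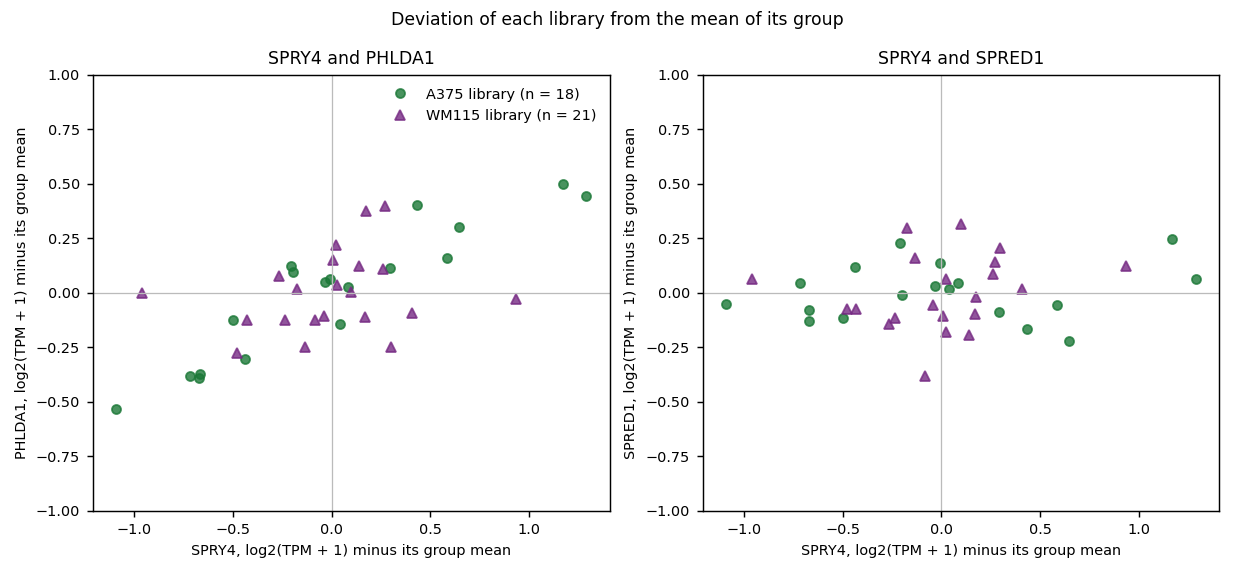
Deviation of each library from the mean of its group in log2(TPM + 1), for SPRY4 (x axes) against PHLDA1 (left) and SPRED1 (right), with A375 libraries as circles (n = 18) and WM115 libraries as triangles (n = 21). A375 libraries lie along a line for PHLDA1 (r = 0.93) and scatter for SPRED1 (r = 0.16).

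Over the 11 group means, each line centred on its own mean, the genes outside the set whose pattern was most like that of DUSP6 were TNC (r = 0.96), HCFC2 (0.95) and S1PR2 (0.95), and for SPRY4 they were ZNF670 (0.97), TRIB1 (0.95) and PRKAR1A (0.95), among 15287 genes. These are the highest of many values over few points and are given as a description.

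At the transcript level, 1 transcript carried nearly all of DUSP4, DUSP5, SPRY2 and PHLDA1 in every library (at least 93.0% of the gene's TPM). SPRY4-202 carried 77.1% to 92.1% of SPRY4 in A375 and 72.7% to 85.7% in WM115. DUSP6 was spread over DUSP6-202, DUSP6-201 and DUSP6-205, with medians of 30.4%, 26.3% and 19.5% in A375, and ETV4 over 11 transcripts. The leading transcript of SPRY1, SPRY1-206, is annotated as a processed transcript without a coding sequence, at a median of 34.6% in A375 and 35.7% in WM115. The noncoding SPRED1-202 took a median of 25.0% of SPRED1 in A375 and 11.6% in WM115.

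The rest of the pathway was read from 5 further lists. In the list of adaptors and kinases of the cascade, the adaptor GAB2 rose in A375 clone 1.2 (1.28) and fell in WM115 clone 4.2 (-1.38, a call lost without 1 library). The kinase MAP2K2, also named MEK2, fell in A375 clone 4.1 (-1.10, SE 0.11; limma adjusted p = 3.2e-05). The calls were 1 of 18 genes tested in each of these clones, against 4.01%, 6.6% and 0.653% of all genes. The list had no call in the other clones. MAP2K2 was at 141 ± 17.9 TPM in A375 wild type (SD, n = 4) and 64.9 ± 4.15 TPM in clone 4.1 (n = 4), the A375 clone with the highest DUSP5 and SPRY4. These 2 genes, like the others named from counts of 5 or fewer, were chosen after their values were seen.

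Of 8 further DUSP genes, 7 were tested in A375 and 8 in WM115. The calls were DUSP2 in A375 clone 1.2, DUSP9 and DUSP10 in WM115 clone 1.2 and DUSP10 in WM115 clone 4.2, all downward. They were 1 of 7, 2 of 8 and 1 of 8 genes, against 4.01%, 7.61% and 6.6% of all genes. The DUSP2 call was ended by 3 of 8 omissions of 1 library. Those of DUSP9 and of DUSP10 in clone 4.2 were each ended by 1 of 7. DUSP10, a phosphatase of the stress kinases p38 and JNK, was at 47.5 to 69.7 TPM in WM115 wild type, at 19.6, 39.9 and 6.68 TPM in clone 1.2 and at 18.1, 15.2 and 23.8 TPM in clone 4.2. Its differences were -1.59 and -1.5 (limma adjusted p = 0.0082 and 0.010), and -0.95, not called, without the third library of clone 1.2. The list's median over all clones was never above 0.14, and in WM115 it ran from -0.52 to -0.21 against -0.12 to -0.02 over all genes.

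Among 11 other feedback regulators, none was called in the 4 A375 clones, where 10 were tested and 0.473% to 4.01% of all genes were called. ERRFI1, an inhibitor of EGFR and its relatives, rose in both WM115 R4 clones, from 14.1 to 39.7 TPM in wild type to 113, 147 and 64.9 TPM in clone 4.1 and 169, 114 and 75.1 TPM in clone 4.2. The differences were 2.08 and 2.22 (SE 0.37; limma adjusted p = 7.4e-04 and 6.6e-04), and no omission of 1 library ended either call, nor did mitochondrial share as a term (1.54 and 1.96). Among the libraries of high share the call held in clone 4.2 (1.94) and not in clone 4.1 (1.43; limma adjusted p = 0.17). SPRED3 and LRIG1 were called upward in WM115 clone 1.2 (1.0 and 2.25), calls that 4 and 1 of 7 omissions ended. They were 2 of 11 genes, against 7.61% of all genes. ERRFI1 was the 1 of 11 called in WM115 clones 4.1 and 4.2, against 7.57% and 6.6%. None was called in WM115 clones 1.1 and 1.3 (4.88% and 0.618% of all genes).

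Of 16 other ERK output genes, 5 rose and 1 fell in WM115 clone 4.1, where 7.57% of all genes were called, with a list median of 1.02 against -0.10 over all genes. In clone 4.2, 4 rose and 1 fell (6.6% of all genes called), with medians of 0.64 and -0.10. In clone 1.2 the list went the other way, with 1 higher and 3 lower (7.61% called) and medians of -0.36 and -0.02. Those 3 were EGR3 (-2.21), FOS (-1.12) and CCND1 (-1.02), and without the third library of that clone they were at -0.73, -0.55 and -0.52, none of them called. EGR2, an early response transcription factor, rose in both (1.66 and 1.33), as did the receptor EPHA4 (1.44 and 1.3) and PLAUR, the urokinase receptor (1.43 and 1.5), which rose also in clones 1.1 and 1.2 (1.19 and 1.61). MYC fell in both, from 12.7 to 18.5 TPM in wild type to 3.98, 3.42 and 3.36 TPM and to 4.43, 2.82 and 4.56 TPM (-1.83 and -1.74; limma adjusted p = 9.2e-04 and 0.0018), and rose in clone 1.1 (1.22). The MYC, EGR2 and EPHA4 calls held without each library in turn and, in both R4 clones, with mitochondrial share as a term, whereas those of PLAUR were ended by 7 of 9 omissions in clone 1.1, 1 of 7 in clone 1.2 and 4 of 7 in each R4 clone. Among the libraries of high share, MYC in clone 4.2 (-1.82) kept its call and the other differences of MYC, EGR2 and EPHA4 in the R4 clones did not, with limma adjusted p of 0.077 to 0.23. In A375 clone 1.2, EGR1 and EGR3 fell (-2.0 and -1.73) and EPHA2 rose (1.69). The list thus had 1 higher and 2 lower of 16 genes in that clone (4.01% of all genes called), with medians of -0.09 and 0.07. EGR3 was at 5.48, 3.81, 6.71 and 4.0 TPM there against 17.6 to 21.6 TPM in wild type, and the call of EGR1 ended without replicate 3 of wild type. LIF rose in A375 clone 4.1 (1.56), as the 1 of 16 genes called there, against 0.653% of all genes. PLAUR and MYC were the 2 of 16 called in WM115 clone 1.1, against 4.88%.

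**Figure D4:**
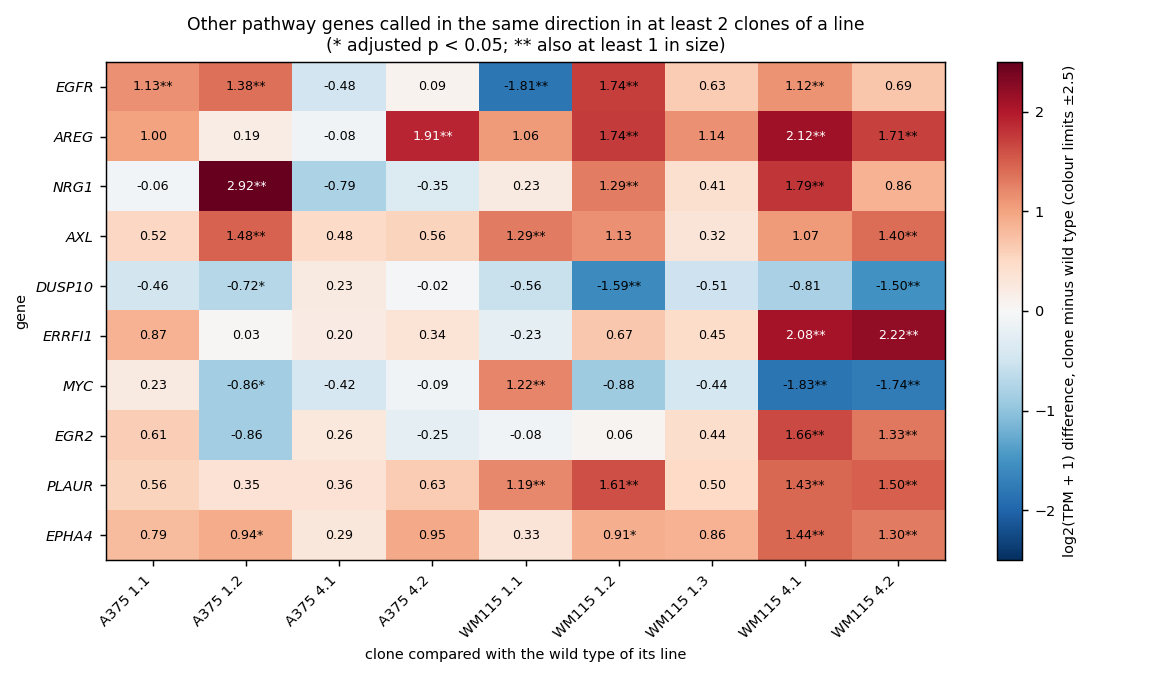
Difference in log2(TPM + 1) between each clone and the wild type of its line (columns) for 10 pathway genes outside the set (rows). They were called in the same direction in at least 2 clones of a line, with at most 4 taken per list and line. FGFR1, also called upward in WM115 clones 4.1 and 4.2, is left out by that limit. There is 1 asterisk for a limma adjusted p under 0.05 and 2 asterisks where the difference is also at least 1. ERRFI1, EGR2 and EPHA4 are called upward and MYC downward in WM115 clones 4.1 and 4.2.

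The receptors and ligands at the top of the pathway numbered 20, of which 17 were tested in each line. EGFR, the receptor for epidermal growth factor, rose in both A375 R1 clones, from 2.46 to 5.13 TPM in wild type to 7.85, 10.7 and 13.1 TPM in clone 1.1 and 11.5, 12.8, 11.6 and 14.2 TPM in clone 1.2 (1.13 and 1.38; limma adjusted p = 0.019 and 4.2e-04), and the call in clone 1.1 ended in 3 of 7 omissions. In WM115 it rose in clones 1.2 and 4.1 (1.74 and 1.12, the latter ended by 1 of 7 omissions) and fell in clone 1.1 (-1.81), where all 5 libraries were at most 0.048 TPM against 2.24 to 3.08 TPM in wild type. The ligand NRG1 rose in A375 clone 1.2 (2.92) and in WM115 clones 1.2 and 4.1 (1.29 and 1.79), the ligand AREG in A375 clone 4.2 (1.91) and in WM115 clones 1.2, 4.1 and 4.2 (1.74, 2.12 and 1.71), and the receptor AXL in A375 clone 1.2 (1.48) and in WM115 clones 1.1 and 4.2 (1.29 and 1.40). The call of AREG was ended by 5 of 7 omissions of 1 library in A375 clone 4.2, by 4 of 7 in WM115 clone 1.2 and by 5 of 7 in clone 4.2. Those of NRG1 in WM115 clone 1.2 and of AXL in WM115 clones 1.1 and 4.2 were ended by 4 of 7, 6 of 9 and 6 of 7 omissions. Of the 17 tested, 5 were higher and 1 lower in WM115 clone 1.2 (7.61% of all genes called), 4 and 0 in clone 4.1 (7.57%), 5 and 0 in clone 4.2 (6.6%), and 3 and 0 in A375 clone 1.2 (4.01%). The counts were 1 and 0 in each of A375 clones 1.1 and 4.2 (0.731% and 0.473%), and 1 and 1 in WM115 clone 1.1 (4.88%).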

How the data were processed

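Poly(A) RNA of the 39 libraries was sequenced, per the labels' protocols, and the submitters' processing notes name DRAGEN and the build GRCh38, while the annotation and the versions are not given in the sources used here. The deposited values are TPM per gene and per transcript, so read depth is unknown, no counting interval can be given, and their number of libraries limits the precision. A further 6 columns of each table match no sample and were not used.

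Values were taken as log2(TPM + 1), and genes with at least 1 TPM in at least 3 libraries of a line entered limma 3.58.1 (R 4.3.3; empirical Bayes with a trend, two-sided), with all groups of a line in 1 fit and Benjamini-Hochberg adjustment over all genes tested. Both wild types were compared in a fit of all 39 libraries, and regions over clone means. Fold changes on this scale understate those of low genes. The fit was tested on simulated data with the gene means and residual spreads of all A375 libraries, and noise drawn independently for each library (16147 genes). The changed genes were picked from those of higher mean level and altered in clone 1.2. The fit called 85 of 100 genes changed by 1.5 on the log2 scale, 99 of 100 changed by 2.5, and 6 unchanged genes. These rates do not cover genes of low level or deviations that libraries share. Other pathway genes were named where called in the same direction in at least 2 clones of a line, at most 4 per list and line. The members, lists and tests were chosen with earlier results of these data known.

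Replicate numbers were checked by correlating the deviations of same-numbered libraries. Only in A375 clone 4.1 against wild type were all of them above 0.1 (0.33, 0.78, 0.34 and 0.70), so a paired fit is given for that clone. Alternatives were another pseudocount, filters, scalings, a term for high or low mitochondrial share, 2-group fits, blocks and omissions of single libraries or clones. Promoters came from the RefSeq table (GRCh38.p14), which held 6 of the 10 genes, and positions and exons from GENCODE 29. Some genes of the cascade list are not reported here.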

Additional observations from a re-analysis of the deposited data

Results flagged for a closer look

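In 50 sets of 4 or 5 libraries (10 genes in 5 groups), 4 held a library far from the others, and chance alone marks about 1 in 20. All 4 were in A375 clone 1.2. Replicate 4 had the highest DUSP5 (18.2 TPM, the others 12.1 to 12.8), SPRY1 (35.4 TPM, the others 4.56 to 8.11) and SPRED1 (44.0 TPM, the others 35.1 to 36.0). Replicate 2 had the lowest PHLDA1 (185 TPM, the others 264 to 272). Without replicate 4 of the clone the SPRY1 difference from wild type was -0.56 in place of 0.01 (limma adjusted p = 0.59 and 0.99).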

How the results depend on the processing

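Over the 12 comparisons, the number of the 10 genes called moved as follows. In A375 clone 1.2 the count of 1 (SPRY4) became 2, with SPRY2, under the pseudocount of 0.1, median-of-ratios scaling, quantile normalization and no minimum difference, and 0 within the libraries of low mitochondrial share, and it ranged from 1 to 2 over omissions of single libraries. Without a minimum difference the counts were 1 in A375 clone 4.1, 4 in WM115 clone 4.1, 3 in WM115 clone 4.2 and 4 between the wild types. In WM115 clone 4.2 the count of 0 became 1 (SPRY4) with median-of-ratios scaling and ranged from 0 to 1 over omissions, the call appearing without replicate 3 of wild type. Between the wild types the count of 1 ranged from 0 to 1 over omissions. In the other comparisons the count was 0 under all alternatives run. No called difference reversed among 2997 single-gene values, and 190 called ones, mostly of the other pathway genes, lost their call. A further 106 uncalled differences changed sign.

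With the replicate block the SPRY4 call in A375 clone 1.2 held (-2.41; limma adjusted p = 0.026). The number of the 10 genes with an adjusted p under 0.05 under the block was 4 in A375 clone 4.1 (1 without; 11.7% of all genes under the block), 1 in A375 clone 1.2 (2 without, SPRY2 being lost; 2.29%), 3 in WM115 clone 1.1 (0 without; 29.8%), 1 in WM115 clone 4.1 (4 without; 5.4%), 0 in WM115 clone 4.2 (3 without; 2.58%) and 5 between the wild types (4 without, SPRY1 being added; 38.2%). Apart from A375 clone 4.1, the numbers do not pair the libraries of a clone with wild type by the check used. With the third library of WM115 clone 1.2 left out of the spread, an alternative chosen after seeing the data, these counts were 5 in clone 4.1 and 4 in clone 4.2. The shares of all genes in that fit were 27.2% and 23.5%, and none of the 10 was called. Read depth is unknown, so what it limits could not be stated.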
